A study of Mus musculus with 6 samples.

Results

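The SLC25 genes encode the mitochondrial carriers, and their transcripts were measured after voluntary wheel running (VWR) in the soleus (Sol), a slow postural muscle of the hindlimb, in WT and LSD1-mKO mice. Members were taken by name, as every symbol in the count table that starts with Slc25a, leaving out Slc25a11, Slc25a12, Slc25a13 and Slc25a20. This gave 43 of the 24411 genes in the table, from 47 symbols with that start. Of the 43, 34 had enough counts to be tested (79.1%) and 9 did not.

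SLC25 carriers are proteins of the mitochondrial inner membrane, with a few members in the outer membrane or in peroxisomes, and they move nucleotides, phosphate, carboxylates, amino acids, cofactors and iron in and out of the matrix. In muscle the ADP/ATP carrier and the phosphate carrier bring ADP and phosphate to ATP synthase and return ATP to the contractile apparatus. Other members feed the citric acid cycle, one-carbon metabolism and heme or iron-sulfur cluster assembly.

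RNA-seq libraries were made from the Sol of 6 male mice, 3 WT and 3 LSD1-mKO, with 1 library per mouse. LSD1-mKO mice carried floxed alleles of Lsd1, the gene listed as Kdm1a that encodes a histone lysine demethylase, together with a tamoxifen-inducible CreERT2 driven by the human ACTA1 promoter, which is active in muscle fibers. WT mice carried the floxed alleles without the transgene, so CreERT2 itself was present in the LSD1-mKO group alone, and cells of the muscle other than fibers keep the gene in both groups. From 8 weeks of age both genotypes had the wheel for 38 days in all. These began with 3 days of getting used to it, followed by 5 days of tamoxifen at 75 mg/kg and 30 days over which running was measured. Every mouse had run, and sedentary mice are not analysed here, so the comparison is between genotypes after training and not of training itself.

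The libraries held 8940206 to 10989846 estimated counts in WT and 10984664 to 13798059 in LSD1-mKO. Kdm1a stood at 40.5, 38.2 and 33.6 CPM (counts scaled to a common library size by TMM) in the WT mice and at 14.6, 16.6 and 16.6 CPM in the LSD1-mKO mice. Its log2 fold change, given throughout as LSD1-mKO over WT, was -1.23 (SE 0.11, edgeR adjusted p = 0.0160), so the labels match the deletion. Slow-fiber markers summed to 32173 to 40012 CPM in WT and 34642 to 41943 CPM in LSD1-mKO, and all 7 were present in every mouse. Of these 7, 6 were fitted above 0 (45.2% of all genes were), at a median of 0.15 on the log2 scale, and none passed the test. Fibroblast markers varied widely between mice. The 5 of them summed to 1286, 3320 and 4234 CPM in WT and to 2713, 1287 and 1423 CPM in LSD1-mKO, with none at 0. All 5 were fitted lower in LSD1-mKO, at a median of -0.95 on the log2 scale, and none passed the test. That median reflects the collagen genes Col1a1, Col1a2 and Col3a1, which lay between -1.08 and -0.95. The other fibroblast markers, Pdgfra and Dcn, differed little, at -0.14 and -0.04. In whole muscle, fewer cells of a type and less RNA per cell cannot be told apart.

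A few carriers made up nearly all of the family's transcripts. Levels between genes were compared in TPM, a transcript share that takes transcript length into account. Slc25a4, the ADP/ATP carrier of heart and skeletal muscle, stood at 6104, 5358 and 5134 TPM in WT and at 5223, 5577 and 5882 TPM in LSD1-mKO. Its mean over the 6 mice, 5546 TPM, was 3.73 times that of the second member. That second member was Slc25a3, the phosphate carrier, at 1534, 1396 and 1320 TPM in WT and 1391, 1605 and 1675 TPM in LSD1-mKO. Together these 2 genes gave 88.4% to 89.8% of all SLC25 TPM in every mouse of either genotype. The ADP/ATP carrier Slc25a5, the form of most dividing tissues, followed at 157, 147 and 152 TPM in WT and 156, 128 and 167 TPM in LSD1-mKO. The order of these 3 was the same in all 6 mice, with no overlap between one gene and the next.

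Below them the levels ran on without a gap. Slc25a34, a carrier whose substrate is not settled, had 65.9, 58.9 and 50.7 TPM in WT and 63.6, 60.7 and 78.7 TPM in LSD1-mKO. Slc25a33, a pyrimidine nucleotide carrier, had 107, 47.8 and 44.7 TPM in WT and 43.5, 48.5 and 82.9 TPM in LSD1-mKO. Means of 63.1 TPM for Slc25a34, 62.4 TPM for Slc25a33, 60.4 TPM for the glutamate carrier Slc25a22 and 56.3 TPM for the mitochondrial glutathione carrier Slc25a39 followed each other in this order, and the values of these 4 genes overlapped across mice. The median tested member stood at 22.0 TPM and the lowest, Slc25a30, at 2.30 TPM.

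**Figure D1:**
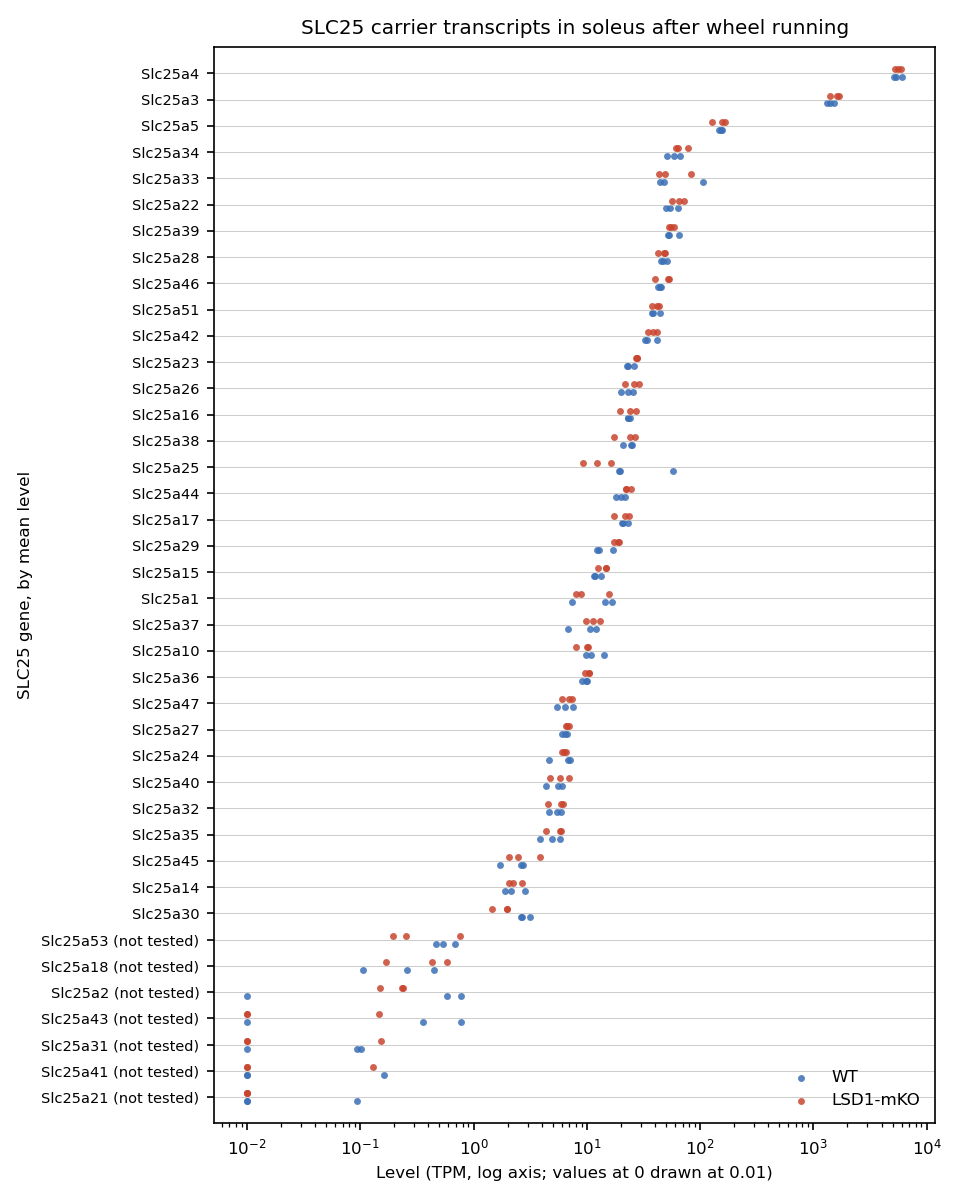
Level of 40 SLC25 genes (rows, ordered by their mean) in each mouse, in TPM on a log axis, with blue points for WT (n = 3) and red points for LSD1-mKO (n = 3), and values of 0 drawn at 0.01. Slc25a4 and Slc25a3 lead in every mouse, with Slc25a5 next and the lowest tested gene, Slc25a30, averaging 2.30 TPM; the 2 genes at 0 in every mouse, Slc25a48 and Slc25a54, are left out.

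The 9 members that were not tested were near or at 0 in both genotypes. Their highest count in any mouse was 15, for Slc25a53, followed by 7 for the glutamate carrier Slc25a18, 5 for the basic amino acid carrier Slc25a2, 4 for Slc25a43 and 2 for Slc25a31, the ADP/ATP carrier of the germ line. Slc25a21, an oxodicarboxylate carrier, and Slc25a41, an ATP-Mg/phosphate carrier, reached 1 count, and Slc25a48 and Slc25a54 had 0 in every mouse, which allows up to 3 counts in each.

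No member passed the test between genotypes. Across 12828 genes, edgeR's quasi-likelihood test with Benjamini-Hochberg adjustment called 0.00780% higher and 0.00780% lower in LSD1-mKO, 1 gene each way, and DESeq2 called 0.327% in either direction, with 0 SLC25 genes among them. The lowest adjusted p of a member was 0.619. At an unadjusted p under 0.05 in edgeR, 3 members were higher (8.82% of those tested, against 3.52% of all genes). In the same fit 2 were lower (5.88%, against 2.88%). In DESeq2 1 member was higher (2.94%, against 2.72% of all genes) and 2 were lower (5.88%, against 1.78%). In 5 members each LSD1-mKO value exceeded each WT value (14.7%, against 6.63% of all genes) and in 3 the reverse held (8.82%, against 6.10%). These shares rest on 5 members or fewer in each direction.

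The family as a whole sat near 0. The median log2 fold change of the 34 members was 0.07, with quartiles of -0.02 and 0.17, against -0.02 for all genes tested. Fitted values were above 0 in 24 members (70.6%) and below 0 in 10, while 45.2% of all genes were above 0. For 15 members the fitted change was under 0.1 on the log2 scale, and for 29 under 0.25, at a median SE of 0.15. Leaving out 1 mouse at a time put between 19 and 29 members above 0. The lowest came without LSD1-mKO replicate 3 and the highest without WT replicate 1, each of 35 tested. Of all genes, 6011 of 13062 and 6198 of 13079 were above 0 in these fits, in that order. Summed SLC25 TPM was 8506, 7623 and 7305 in WT and 7438, 8024 and 8501 in LSD1-mKO, so the mice of both genotypes covered the same range (7811 ± 622 and 7988 ± 532, mean ± SD, n = 3).

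**Figure D2:**
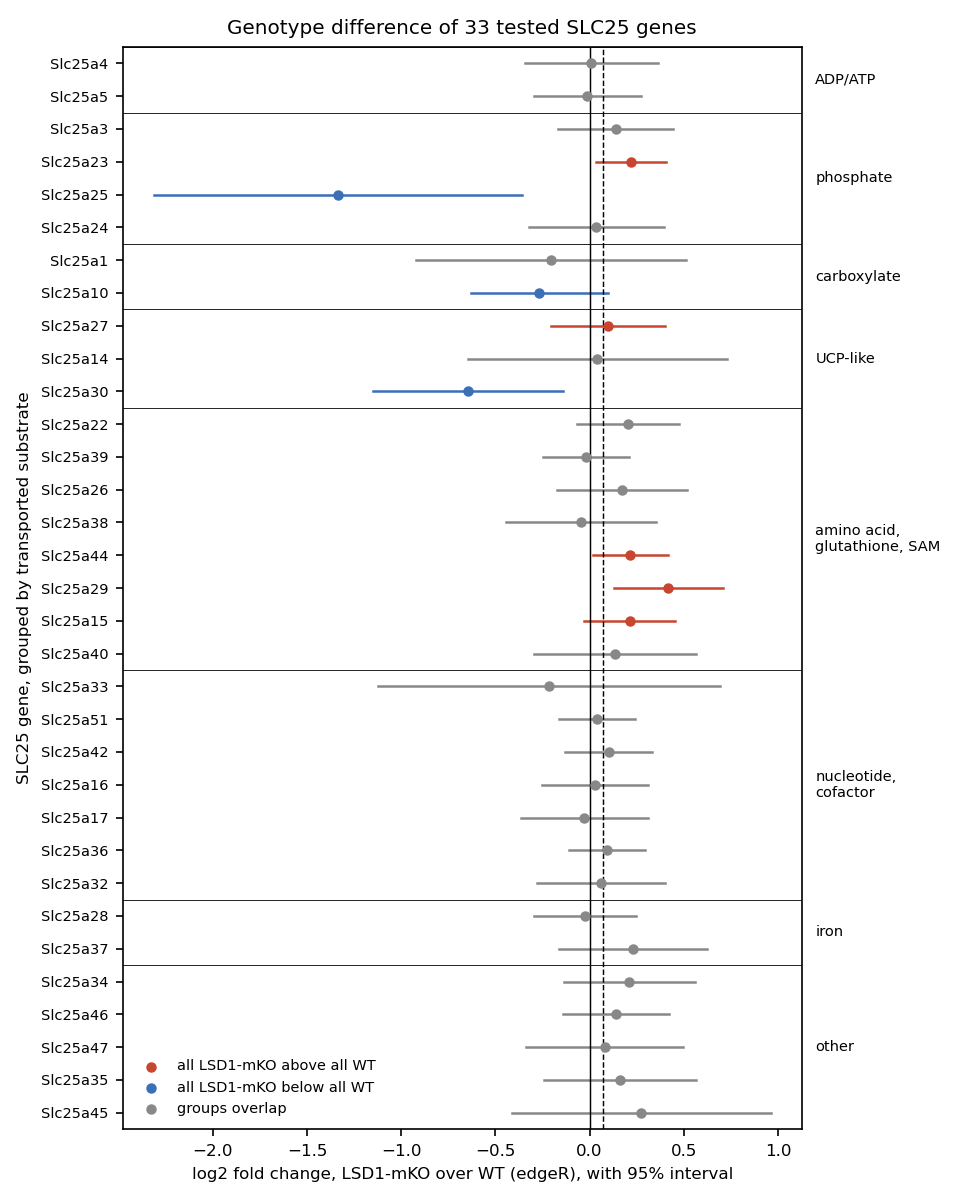
Log2 fold change of 33 tested SLC25 genes, LSD1-mKO over WT (x axis), with its 95% interval from edgeR, in rows grouped by transported substrate. Red marks genes with all LSD1-mKO mice above all WT mice, blue the opposite and gray overlap; the dashed line is the median of 0.07 over all 34 members tested, most intervals cross 0, and Slc25a25 at -1.34 stands farthest from it.

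Each mouse was the highest of the 6 for some members and the lowest for others. The highest value was in WT replicates 1, 2 and 3 for 6, 2 and 3 members and in LSD1-mKO replicates 1, 2 and 3 for 7, 4 and 12. The lowest value was in the WT mice for 8, 4 and 12 members and in the LSD1-mKO mice for 6, 3 and 1. The median deviation of the members from their 6-mouse mean was 0.083 in LSD1-mKO replicate 3 and 0.053 in LSD1-mKO replicate 2, and -0.074 in LSD1-mKO replicate 1, on the log2 scale. In WT it was 0.016, -0.078 and -0.064. LSD1-mKO replicate 1 was thus close to WT replicates 2 and 3 in this median. The spread of a member between mice of 1 genotype, a median SD of 0.18 on the log2 scale, was close to the 0.17 of all genes.

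**Figure D3:**
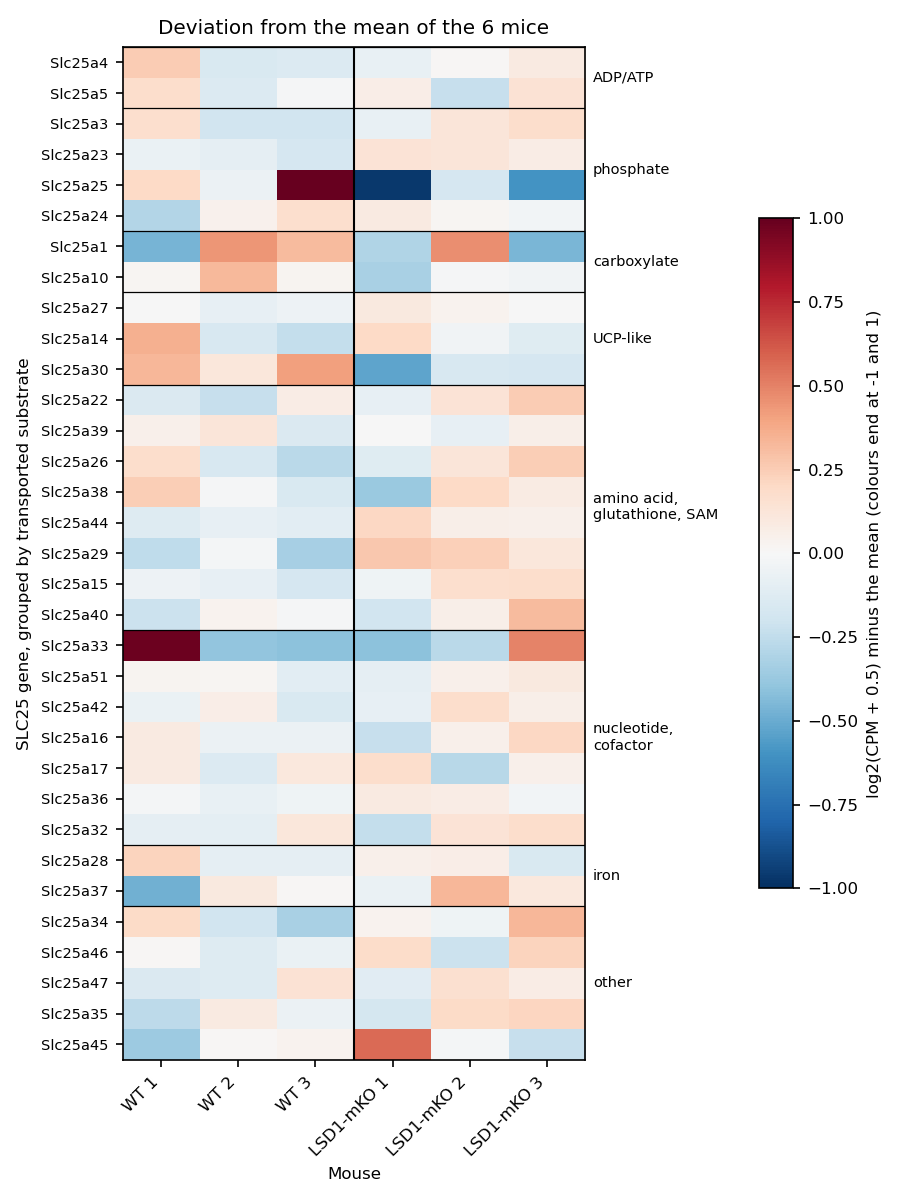
Deviation of 33 tested SLC25 genes (rows, grouped by transported substrate) from the mean of each over the 6 mice (columns), in log2(CPM + 0.5), red for above and blue for below, with colors ending at -1 and 1. Most rows are pale in every mouse; Slc25a25 is strongest in WT replicate 3 and lowest in LSD1-mKO replicate 1, and Slc25a33 is strongest in WT replicate 1 and LSD1-mKO replicate 3.

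The fitted differences of the ADP/ATP carriers were close to 0. Slc25a4 averaged 5532 ± 508 TPM in WT and 5561 ± 330 TPM in LSD1-mKO, with a log2 fold change of 0.01 (95% interval -0.35 to 0.36). Its highest mouse was WT replicate 1, and without that mouse the value was 0.16. Slc25a5 averaged 152 ± 4.74 and 150.2 ± 19.98 TPM, with a log2 fold change of -0.01 (95% interval -0.30 to 0.27). Slc25a4 made up 97.5%, 97.3% and 97.1% of the TPM of the ADP/ATP carriers in WT and 97.1%, 97.8% and 97.2% in LSD1-mKO. The difference was 0.050 percentage points (exact permutation test, 2-sided, p = 0.9), and 3 mice against 3 cannot give a p below 0.1.

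Among the carriers of phosphate and of ATP-Mg in exchange for phosphate, 4 of 5 were tested, and 2 stood apart in opposite directions. Slc25a25, a calcium-regulated ATP-Mg/phosphate carrier, had 34.0, 28.4 and 90.6 CPM in WT and 14.9, 26.3 and 19.4 CPM in LSD1-mKO. Every LSD1-mKO mouse was below every WT mouse, by little for LSD1-mKO replicate 2, and WT replicate 3 was far above the other WT mice. The log2 fold change was -1.34 (SE 0.43, edgeR adjusted p = 0.645), the largest of the family. Without WT replicate 3 it was -0.62. That mouse was also the one with the highest summed fibroblast markers. In the same mouse order these sums were 1286, 3320 and 4234 CPM in WT and 2713, 1287 and 1423 CPM in LSD1-mKO. WT replicate 2 and LSD1-mKO replicate 1, with the next highest sums, had the lowest Slc25a25 of their genotypes. The part of these markers in the difference was not tested. Only 1.88% of all genes varied more within a genotype than Slc25a25. Of its exon bases 379 are shared with Naif1, which stood at 2.12 CPM in WT and 2.26 CPM in LSD1-mKO.

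Slc25a23, a second calcium-regulated ATP-Mg/phosphate carrier, had 37.3, 36.6 and 34.6 CPM in WT and 42.8, 42.4 and 41.1 CPM in LSD1-mKO. The groups were tight and did not overlap, with a log2 fold change of 0.22 (SE 0.08, edgeR adjusted p = 0.719). The phosphate carrier Slc25a3 overlapped between genotypes, with a log2 fold change of 0.14 (95% interval -0.17 to 0.44), and without WT replicate 1 this was 0.27. Slc25a24, the third calcium-regulated form, stood at 0.04 (SE 0.16).

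Of the 10 amino acid, glutathione and S-adenosylmethionine carriers 8 were tested and none passed. Fitted values were above 0 in 6 of these (45.2% of all genes were), 2 had an unadjusted p under 0.05 in the higher direction (3.52% of all genes), and 3 had LSD1-mKO wholly above WT (6.63% of all genes), or 2 with library size alone as the scaling. The median over the 8 was 0.19 on the log2 scale, and no test compared these genes with the other carriers. Slc25a29, a carrier of arginine and lysine, had 11.9, 14.1 and 11.3 CPM in WT and 17.4, 17.0 and 15.6 CPM in LSD1-mKO. The genotypes did not overlap, at 16.6 ± 0.968 CPM against 12.5 ± 1.49 CPM. The log2 fold change was 0.42 (SE 0.13, edgeR adjusted p = 0.619), and leaving out any 1 mouse kept it between 0.35 and 0.52.

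Slc25a44, a carrier of branched-chain amino acids, had 31.6, 32.6 and 32.1 CPM in WT and 40.0, 36.0 and 35.9 CPM in LSD1-mKO. These groups did not overlap either, and the log2 fold change was 0.22 (SE 0.09, edgeR adjusted p = 0.736). Slc25a15, the ornithine carrier of the urea cycle, had 19.5, 19.1 and 17.9 CPM in WT and 19.7, 22.9 and 23.0 CPM in LSD1-mKO, with LSD1-mKO replicate 1 just above the highest WT mouse, and the groups overlapped with library size alone. Its log2 fold change was 0.21 (SE 0.11, edgeR adjusted p = 0.766). The other tested members of the group overlapped between genotypes and ran from -0.05 for the glycine carrier Slc25a38 to 0.20 for Slc25a22, with the S-adenosylmethionine carrier Slc25a26 at 0.17. The glutathione carriers Slc25a39 and Slc25a40 stood at -0.02 and 0.14.

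**Figure D4:**
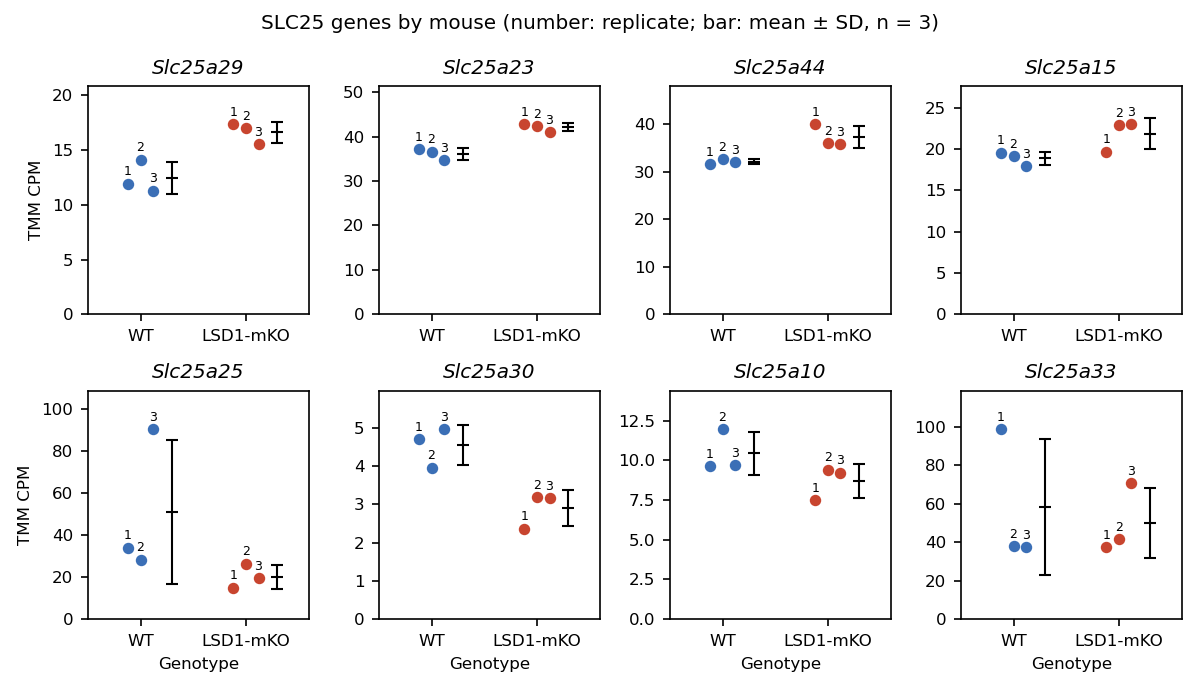
TMM-scaled CPM of 8 SLC25 genes in each WT mouse (blue) and each LSD1-mKO mouse (red), numbered by replicate, with bars for mean ± SD (n = 3). Both groups are apart for Slc25a29, Slc25a23, Slc25a44, Slc25a15, Slc25a25, Slc25a30 and Slc25a10, and they overlap for Slc25a33, where WT replicate 1 reached 98.9 CPM.

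The 2 tested carboxylate carriers were both fitted lower. Slc25a10, the dicarboxylate carrier, which exchanges malate or succinate for phosphate, had 9.64, 12.0 and 9.68 CPM in WT and 7.47, 9.41 and 9.22 CPM in LSD1-mKO. The groups did not overlap but were close, and with library size alone they overlapped. The log2 fold change was -0.27 (SE 0.16, edgeR adjusted p = 0.781), and -0.15 without WT replicate 2. Slc25a1, the citrate carrier that supplies fatty acid synthesis, ranged from 6.03 to 11.7 CPM in WT and from 6.05 to 11.9 CPM in LSD1-mKO, with a log2 fold change of -0.20 (SE 0.31) that was -0.56 when LSD1-mKO replicate 2 was dropped and -0.02 when WT replicate 2 was.

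The uncoupling-protein-like carriers went both ways. Slc25a30, a kidney-rich member of this branch, had 4.70, 3.96 and 4.98 CPM in WT and 2.37, 3.18 and 3.17 CPM in LSD1-mKO, so that it was lower in every LSD1-mKO mouse and low throughout. Its log2 fold change was -0.65 (SE 0.22, edgeR adjusted p = 0.680), between -0.74 and -0.51 with any 1 mouse left out. Slc25a27, better known from the nervous system, had 8.56, 8.10 and 8.26 CPM in WT and 9.25, 8.83 and 8.57 CPM in LSD1-mKO, just without overlap, and overlapping with library size alone. Its log2 fold change was 0.10 (SE 0.13). Slc25a14 stood at 0.04 (SE 0.30).

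All 8 nucleotide and cofactor carriers were tested, and none had an unadjusted p under 0.05 or groups apart. Slc25a33 had 98.9, 37.9 and 37.4 CPM in WT and 37.4, 41.4 and 70.6 CPM in LSD1-mKO, with 1 mouse of each genotype well above the rest. Its log2 fold change was -0.22 (95% interval -1.12 to 0.69), and without WT replicate 1 it was 0.40. Only 2.35% of all genes varied more within a genotype. WT replicate 1 and LSD1-mKO replicate 3 had summed fibroblast markers of 1286 and 1423 CPM and LSD1-mKO replicate 2 had 1287 CPM, and the part of these markers in the Slc25a33 level was not tested. The others reported here lay between -0.03 for Slc25a17, a peroxisomal carrier of cofactors, and 0.10 for the coenzyme A carrier Slc25a42. Slc25a51, the mitochondrial NAD carrier, was at 0.04 (SE 0.09) and Slc25a32, which carries folate and FAD, at 0.06.

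The iron carriers Slc25a28 and Slc25a37, known as mitoferrins, stood at -0.02 and 0.23. Slc25a37, the form of red cell precursors, had 14.0, 21.2 and 19.8 CPM in WT and 18.8, 24.9 and 21.2 CPM in LSD1-mKO, with an edgeR adjusted p of 0.820 and a log2 fold change of 0.08 without WT replicate 1. Red blood cell markers, of which 5 of 7 were tested, summed to 202 to 535 CPM in WT and 260 to 420 CPM in LSD1-mKO, and their part in the Slc25a37 level was not tested. The 5 tested members of other or unsettled substrate were all fitted above 0, from 0.08 for Slc25a47, described in liver, to 0.28 for Slc25a45 (SE 0.30). Slc25a34 was at 0.21 (SE 0.15, edgeR adjusted p = 0.817), and Slc25a46, an outer-membrane protein of mitochondrial dynamics, at 0.14. With 1 mouse left out Slc25a34 ran from 0.09 to 0.38, the lower value in the fit that dropped LSD1-mKO replicate 3 and the higher in that which dropped WT replicate 1, and Slc25a46 from 0.06 to 0.28 (without LSD1-mKO replicates 3 and 2). All 5 overlapped between genotypes.

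Positions are those of GENCODE on GRCm38. Slc25a29 lies on chromosome 12 from 108825873 to 108835883 on the minus strand, and Slc25a47 begins 162 bases from it on the plus strand with no gene between them. This was the closest pair of members, with log2 fold changes of 0.42 for Slc25a29 (SE 0.13) and 0.08 for Slc25a47 (SE 0.18), whose 95% intervals overlap, and a difference between them was not tested. Slc25a25 lies on chromosome 2 from 32414487 to 32451445, Slc25a30 on chromosome 14 from 75760117 to 75787037, Slc25a23 on chromosome 17 from 57043711 to 57059863 and Slc25a44 on chromosome 3 from 88410498 to 88425139, all 4 on the minus strand. Among the 43 members, 13 share exon bases with another gene, including Slc25a25, Slc25a23, Slc25a10 and Slc25a33, and the strand setting of the counting is not given in the sources used here, so reads in shared bases cannot be assigned with certainty.

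Promoters were searched for AGGTCA, the half-site that estrogen-related receptors and other nuclear receptors bind, on both strands, because these receptors are known regulators of mitochondrial genes in muscle. The windows, 250 bases before to 50 after the gene start, come from RefSeq on GRCm38.p6 and covered 32 of the 43 members. AGGTCA was in 4 of 32 (12.5%), against 18.1% of the 27025 genes with a window, and the longer TNAAGGTCA, which contains it, was in 0 of 32, against 1.43% of genes. These counts are too small to tell the members from all genes, and no test compared the shares. The 4 members with AGGTCA were Slc25a34, Slc25a39, Slc25a45 and Slc25a47, with the leftmost base at -119, -172, -50 and -153 from the gene start. Their log2 fold changes were 0.21, -0.02, 0.28 and 0.08, and all 4 overlapped between genotypes. The windows are shown for Slc25a29, the member with the lowest p, which has no match, for its neighbor Slc25a47 and for Slc25a34, one of the 5 most abundant members. Each reads 5′ to 3′ on the gene's strand, and capitals mark the match, which is on the other strand in both genes and so reads TGACCT. The RefSeq start used for Slc25a47 lies farther downstream than the GENCODE start used for the distance given above.
Slc25a29, chr12:108835827-108836126, minus strand: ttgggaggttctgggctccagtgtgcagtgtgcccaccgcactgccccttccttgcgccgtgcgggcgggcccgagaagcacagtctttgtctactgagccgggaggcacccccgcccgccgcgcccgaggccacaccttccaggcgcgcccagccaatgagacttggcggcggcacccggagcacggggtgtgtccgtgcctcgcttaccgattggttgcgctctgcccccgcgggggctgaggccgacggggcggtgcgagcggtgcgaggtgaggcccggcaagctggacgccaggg
Slc25a47, chr12:108850879-108851178, plus strand: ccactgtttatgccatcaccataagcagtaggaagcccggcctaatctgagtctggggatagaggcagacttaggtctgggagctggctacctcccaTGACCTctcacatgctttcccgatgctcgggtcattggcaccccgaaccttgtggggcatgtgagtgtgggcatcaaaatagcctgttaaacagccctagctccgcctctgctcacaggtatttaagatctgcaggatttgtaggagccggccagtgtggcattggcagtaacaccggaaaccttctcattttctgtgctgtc
Slc25a34, chr4:141623785-141624084, minus strand: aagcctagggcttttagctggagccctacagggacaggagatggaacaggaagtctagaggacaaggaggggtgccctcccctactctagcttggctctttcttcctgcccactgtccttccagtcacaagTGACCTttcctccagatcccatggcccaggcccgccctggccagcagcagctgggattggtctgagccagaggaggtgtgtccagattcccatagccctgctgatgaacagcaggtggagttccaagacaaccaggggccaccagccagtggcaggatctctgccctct

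Other genes of mitochondrial transport were read as a backdrop, and none passed the test. Of the 9 relatives left out by the naming rule, 8 were tested and 6 were fitted above 0, with the oxoglutarate carrier Slc25a11 at 0.10, the aspartate/glutamate carriers Slc25a12 and Slc25a13 at 0.06 and 0.14, and the carnitine carrier Slc25a20 at 0.09. The uncoupling proteins Ucp2 and Ucp3 stood at 0.25 and -0.10, and Ucp1, the defining gene of brown adipocytes, was at 0 in every mouse. The 3 outer-membrane channels of the VDAC family lay between -0.02 for Vdac3 and 0.03 for Vdac1, and the pyruvate carrier genes Mpc1 and Mpc2 were at 0.13 and 0.04. For Mpc1 every LSD1-mKO mouse was above every WT mouse, as for 6.63% of all genes. The closest values were 420.7 CPM in LSD1-mKO and 420.0 CPM in WT. Of 9 genes for the import of carriers into the inner membrane, 4 were fitted above 0, at a median of -0.06 on the log2 scale. None of the genes in these 3 lists had an unadjusted p under 0.05 in edgeR.

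Markers of further cell types were measured beside these values, and no gene among them passed the test. Fast-fiber markers (9 of 9 tested) summed to 50148 to 73176 CPM in WT and 50243 to 61819 CPM in LSD1-mKO, with WT replicate 1 the highest. Endothelial markers summed to 404 to 599 and 435 to 526 CPM, adipocyte markers to 128 to 201 and 143 to 180 CPM, brown adipocyte markers to 8.46 to 15.9 and 10.9 to 16.4 CPM, immune markers, all 4 tested fitted lower, to 11.5 to 50.7 and 12.7 to 32.0 CPM, and Schwann cell markers to 152 to 167 and 145 to 173 CPM, in WT and LSD1-mKO. Of all markers, the fast-fiber gene Actn3 and the hemoglobin gene Hba-a1 had an unadjusted p under 0.05 in edgeR, both fitted higher in LSD1-mKO. Both overlapped between genotypes, with Hba-a1 at 13.5, 5.76 and 0 CPM in WT and 2.59, 78.0 and 202 CPM in LSD1-mKO. Only 1 of the 5 red blood cell markers tested, Hba-a1, was fitted above 0, and the hemoglobin gene Hba-a2 stood at -0.58. Of the fast-fiber markers, 4 of 9 were fitted above 0. Among the brown adipocyte markers, 2 were tested and went opposite ways. Cidea averaged 9.36 CPM in WT and 13.1 CPM in LSD1-mKO, while Elovl3 averaged 1.85 and 1.34 CPM. The third, Ucp1, was at 0 in every mouse. The summed ranges overlapped for every list, and the part of any of them in the carrier values was not tested.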

How the data were processed

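Sol RNA from each mouse was sequenced as poly(A) libraries with 75-base single-end reads. The authors deposited 1 table of estimated counts per gene, not normalized. Per the labels' processing notes STAR, DESeq2 and mm10 were used, and the counting tool, its annotation and its strand setting are not given in the sources used here. A second deposited table, of the authors' own fold changes and p-values, was not used.

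Estimated counts were rounded to whole numbers. Genes were kept by edgeR's filterByExpr (edgeR 4.0.16, R 4.3.3), scaled by TMM and tested between genotypes with the quasi-likelihood test, adjusted by Benjamini-Hochberg over 12828 genes at 0.05. The script was tested on simulated counts. Each mouse is a replicate, so the edgeR p-values set the genotype difference against the spread between mice. The fit draws the spread of each gene toward that of other genes. CPM values use TMM scaling. TPM used the longest coding transcript of each gene in GENCODE on GRCm38, which covered 99.7% of the counts. No library duplicated another of the same genotype, and pairs across genotypes were not checked in this way. Totals of 8940206 to 13798059 counts per mouse limit precision for low genes. Same-numbered mice did not deviate together (correlations of -0.35, -0.11 and -0.15), and the main test did not pair them. These correlations span all tested genes and cannot exclude a pairing by number.

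Genes with values in every mouse are the 5 members highest in TPM, members with an unadjusted p under 0.05 or groups apart, and the 3 largest fitted rises and falls at a mean of at least 5 CPM. The members, role groups and gene lists were chosen with earlier results of these data known. Alternatives were DESeq2 1.42.0, limma 3.58.1 (voom), other scalings, other filters, a replicate block and leaving out each mouse. The values of 1 tested member are not reported here one by one, and it is kept in the counts and medians over the members.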

Additional observations from a re-analysis of the deposited data

How the results depend on the processing

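No SLC25 gene passed the adjusted threshold under any of the 14 alternatives. Members higher at an unadjusted p under 0.05 numbered 1, in place of 3, with DESeq2, with library size alone and with the replicate block. That was 2.94% of members, against 2.72%, 2.93% and 2.51% of all genes in that order. With 1 mouse left out they numbered 2 to 5, the 5 (14.3% of members, 6.43% of all genes) without WT replicate 1. The 2 came without WT replicate 2 (5.71%, against 2.97%) or WT replicate 3 (5.88%, against 2.34%). Members lower numbered 1 to 2 with 1 mouse left out. The 1 came without WT replicate 3 (2.94%, against 1.80% of all genes) or LSD1-mKO replicate 1 (2.94%, against 3.87%). Members wholly above WT numbered 3, in place of 5, with library size alone (8.82%, against 5.37% of all genes). With 1 mouse left out they numbered 4 to 11, the 4 without WT replicate 2 (11.4%, against 10.6%). The 11 came without WT replicate 1 (31.4% of members) or LSD1-mKO replicate 1 (32.4%). The share of all genes also rose there, from 6.63% to 15.9% and 12.7%. Members wholly below numbered 2, in place of 3, with library size alone (5.88%, against 6.43% of all genes). The members' median log2 fold change ran from 0.04 to 0.10. The Kdm1a log2 fold change was -1.23 with the replicate block, where edgeR's adjusted p was 0.299, and -1.30 to -1.17 with 1 mouse left out, losing its call in 4 of 6 such fits. The Slc25a4 share differed by -0.15 to 0.19 points with 1 mouse left out. Of 462 comparisons of 33 members with an alternative, 434 kept direction and side of the threshold and 28 changed sign, over 14 members, 26 of them with 1 mouse left out. The others were Slc25a4 with library size alone, at -0.0051, and Slc25a5 without a filter, at 0.0029. Over the fits that left out 1 mouse, values ran on the log2 scale from -0.10 to 0.29 for Slc25a14, -0.075 to 0.14 for Slc25a16, -0.13 to 0.10 for Slc25a17, -0.083 to 0.14 for Slc25a24, -0.078 to 0.089 for Slc25a28, -0.016 to 0.19 for Slc25a32, -0.55 to 0.40 for Slc25a33, -0.16 to 0.11 for Slc25a38, -0.095 to 0.041 for Slc25a39, -0.063 to 0.16 for Slc25a4, -0.0038 to 0.26 for Slc25a40, -0.038 to 0.45 for Slc25a45, -0.088 to 0.10 for Slc25a5 and -0.0038 to 0.093 for Slc25a51. Members that kept their sign but moved by over 1.5 times ran from -0.56 to -0.02 for Slc25a1, 0.08 to 0.27 for Slc25a3, -0.32 to -0.15 for Slc25a10, 0.13 to 0.30 for Slc25a22, -1.63 to -0.62 for Slc25a25, 0.08 to 0.32 for Slc25a26, 0.09 to 0.38 for Slc25a34, 0.07 to 0.29 for Slc25a35, 0.08 to 0.35 for Slc25a37, 0.04 to 0.17 for Slc25a42, 0.06 to 0.28 for Slc25a46 and 0.02 to 0.19 for Slc25a47. The cause of these changes was not tested, beyond fewer mice. Low counts left 9 members out, and a median SE of 0.15 limits what could be seen.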
